A study of Homo sapiens with 9 samples.

Results

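A second hairpin, against the cell cycle inhibitor p16, was added to human lung fibroblasts that already carried a hairpin against RRM2, and the effect of that addition on messenger RNA levels is described here across all expressed genes. The comparison uses 6 of the 9 libraries of the series, 3 labelled shRRM2/shp16 and 3 labelled shRRM2, each group with replicates a, b and c. RRM2 encodes the smaller subunit of ribonucleotide reductase, which supplies the deoxyribonucleotides of DNA synthesis. The cells of both groups were IMR90, an established line of fetal lung fibroblasts with a limited number of divisions in culture. All were grown at 2% oxygen, used at population doubling 30 and kept in puromycin at 3 µg per mL for 7 days.

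The shRRM2 group received a pLKO.1 lentivirus with the RRM2 hairpin, and its label names senescence. In the shRRM2/shp16 group the same first virus was followed 24 hours later by a pLKO.1 virus with the p16 hairpin, and its label names a bypass of senescence. The treatment protocol gives a GFP vector as the partner virus of the single-hairpin cells. The 3 control libraries, which the sample labels describe with an empty vector and the protocol with GFP, entered the fit and are given beside the results as a description, with no test against them. The labels name 1 hairpin per gene and 1 line, and no group carried the p16 hairpin without the RRM2 hairpin. They do not say whether a, b and c were separate infections or dishes, so p-values measure the spread between these libraries, which may be technical.

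As background, p16 is 1 of 2 main products of CDKN2A and binds the cyclin D-dependent kinases CDK4 and CDK6. When these kinases are blocked, the retinoblastoma protein RB1 stays bound to E2F factors, and the genes of DNA replication are held down. Cells that are senescent do not divide and often release a mixture of chemokines, cytokines, growth factors and proteases, the senescence-associated secretory phenotype, whose transcription depends largely on NF-kB and C/EBP beta. In lung fibroblasts another well known state is the myofibroblast, which carries smooth muscle actin and lays down matrix under TGF-beta.

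The libraries held 15770895 to 19346628 gene-assigned counts, and 16561 genes passed the filter on low counts. Values are given as CPM, the count divided by the library's size in units of 1e6, after scaling for library composition, so that they compare libraries within a gene and not genes with each other. Replicates lay close together, at a biological coefficient of variation of 0.027 over the 9 libraries, and the first principal component of the 6 libraries, which separated the groups, held 94.7% of their variance. All 12 fibroblast markers listed were measured in both groups. Of 27 markers of epithelial, endothelial, blood and neural cells, 10 passed the filter, and their summed level was 85.4 to 90.9 CPM in shRRM2 and 123 to 133 CPM in shRRM2/shp16, most of it from TEK, at 67.4 and 115 CPM on average. The cells were measured in bulk, so fewer cells of a kind and less RNA per cell cannot be told apart. The defining markers PTPRC, SFTPC, SOX10, KRT5 and CDH5 had 0 to 2 counts in every one of the 6 libraries.

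Most expressed genes differed. By edgeR's quasi-likelihood test with Benjamini-Hochberg adjustment, 10116 of the 16561 tested genes (61.1%) passed an adjusted p of 0.05, 5291 of them higher (31.9%) and 4825 lower (29.1%) with the p16 hairpin. Most of the differences were small, since 5321 of the called genes differed by under 0.5 on the log2 scale and the median size over all tested genes was 0.32. At least 2-fold differences were found for 860 genes that rose (5.19%) and 1089 that fell (6.58%), and 113 genes differed more than 8-fold, 60 of them higher and 53 lower. The groups did not overlap at 10723 genes (64.7%), among them every gene whose values in single libraries are given below. A share of calls near these is the background of this comparison. Percentages in brackets beside list counts below are shares of the tested members, to be read against 31.9% higher and 29.1% lower. The higher genes were 52.3% of all calls, against 62.4% when the authors' log2 RPKM values were tested as deposited with limma.

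**Figure D1:**
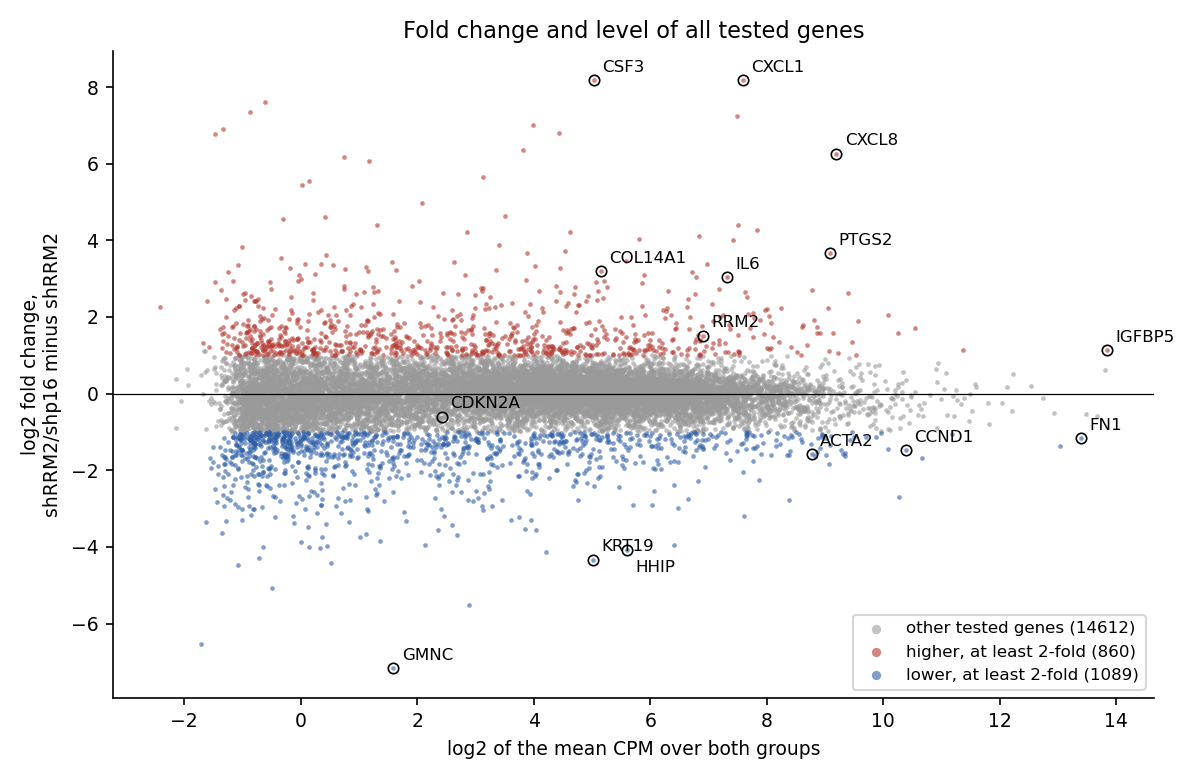
Each point is 1 of the 16561 tested genes, with the log2 of its mean CPM over both groups on the horizontal axis and the fitted log2 fold change, shRRM2/shp16 minus shRRM2, on the vertical axis. Points in colour passed an adjusted p of 0.05 and differed at least 2-fold (860 higher, 1089 lower). CXCL1, CXCL8 and CSF3 lie far above the main cloud at log2 fold changes of 8.17, 6.26 and 8.18, and GMNC lies low at a fitted -7.17.

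The gene targeted by the added hairpin was lower in all 3 libraries that carry it. CDKN2A (ENSG00000147889, chr9:21967753-21995301 on GRCh38) had 6.79, 6.75 and 5.97 CPM in the shRRM2 libraries and 4.33, 3.93 and 4.57 CPM in the shRRM2/shp16 libraries. The groups did not overlap, and the log2 fold change was -0.60 ± 0.13 (SE), adjusted p = 7.0e-05, which is 1.52-fold lower. Control libraries held 5.95, 6.15 and 5.96 CPM. The count covers the whole gene, which also encodes p14ARF from another first exon, so the p16 transcript itself was not measured apart, and the protein was not measured.

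The first hairpin's target moved the other way. RRM2 (ENSG00000171848, chr2:10120698-10131419) had 59.98, 63.2 and 63.2 CPM in the shRRM2 libraries and 181, 175 and 176 CPM in the shRRM2/shp16 libraries. Every shRRM2/shp16 library lay above every shRRM2 library, at a log2 fold change of 1.51 ± 0.035, adjusted p = 7.9e-34, while all 6 stayed below the control libraries at 481, 491 and 484 CPM. The remaining RRM2 message thus differed between the groups 2.85-fold. Whether the first hairpin acted equally in both groups was not tested. The other subunits fell a little, the large subunit RRM1 from 109 to 96.7 CPM and the p53-induced small subunit RRM2B from 88.7 to 66.7 CPM.

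Of 27 tested genes of the p16, RB and E2F pathway, 10 rose (37.0%) and 14 fell (51.9%), and the inhibitors divided. The 3 other INK4 inhibitors rose. CDKN2B, which encodes p15 next to CDKN2A on chromosome 9, had 8.57, 9.46 and 9.87 CPM in the shRRM2 libraries and 11.9, 12.6 and 11.8 CPM in the shRRM2/shp16 libraries, a log2 fold change of 0.38 ± 0.095 (adjusted p = 0.00071). CDKN2C (p18) went from 11.3 to 17.6 CPM and CDKN2D (p19) from 6.05 to 8.36 CPM. Of the CIP/KIP inhibitors, CDKN1A, which encodes the p53-induced p21, fell from 1028 ± 29.8 to 729 ± 4.60 CPM (SD, n = 3), and CDKN1B, which encodes p27, rose from 24.98 ± 0.526 to 42.1 ± 1.85 CPM. CDKN1C did not pass the filter. RB1 and its relative RBL2 rose slightly, by 0.20 and 0.26 on the log2 scale. Limma on the authors' log2 RPKM values as deposited made no call for CDKN1A (adjusted p = 0.057) or RB1 (adjusted p = 0.1).

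The cyclins that pair with CDK4 and CDK6 fell. Of 8 G1 kinases and cyclins, 7 were lower (87.5%) and 1 higher (12.5%). Their median log2 fold change was -1.08 against 0.011 over all tested genes. CCND1, the main D-type cyclin of fibroblasts, had 1997, 1939 and 1987 CPM in the shRRM2 libraries and 703, 721 and 717 CPM in the shRRM2/shp16 libraries. The groups were far apart, the log2 fold change was -1.47 ± 0.026 (adjusted p = 3.6e-38), and the shRRM2/shp16 level was also under the 1429 ± 56.1 CPM of control. CCND2, a second D-type cyclin, had 127, 123 and 128 CPM in the shRRM2 libraries and 35.97, 36.5 and 37.8 CPM in the shRRM2/shp16 libraries, a log2 fold change of -1.78 ± 0.043. The E-type cyclins, which drive CDK2 at the start of S phase, fell as well, CCNE1 from 13.1 to 5.50 CPM and CCNE2 from 13.97 to 5.49 CPM. CDK4, the kinase itself, rose.

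The E2F family changed unevenly, with 3 of 10 tested E2F and DP genes higher and 5 lower. E2F7, a repressor that is itself an E2F target, had 63.9, 59.01 and 59.9 CPM in the shRRM2 libraries and 20.6, 23.8 and 22.2 CPM in the shRRM2/shp16 libraries, a log2 fold change of -1.45 ± 0.055 (adjusted p = 3.9e-26). E2F1, the classic activator, fell from 20.98 to 12.9 CPM, and E2F8, the partner of E2F7, from 10.03 to 6.75 CPM. E2F5, which works mostly in repressor complexes, rose from 5.63 to 11.3 CPM. E2F8 was not called from the log2 RPKM values as deposited (limma, adjusted p = 0.065). The counts of TFDP2 were divided between 2 gene identifiers and its call is uncertain.

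Genes of DNA replication were lower on balance. Of 33 genes of S phase and nucleotide supply, 20 fell (60.6%) and 5 rose (15.2%). Of the 20 that license origins or form the replisome, 13 fell (65.0%) and 2 rose (10.0%), with a median of -0.308 on the log2 scale. GINS2, a part of the replicative helicase, had 14.4, 15.6 and 14.2 CPM in the shRRM2 libraries and 8.24, 8.71 and 8.17 CPM in the shRRM2/shp16 libraries, with no overlap and a log2 fold change of -0.82 ± 0.088 (adjusted p = 7.9e-11). The licensing factors CDC6 and CDT1, which load the helicase on origins, went from 37.6 to 22.8 and from 25.1 to 15.9 CPM, and GINS1 from 23.9 to 14.8 CPM. The thymidine kinase TK1 fell from 46.3 to 36.99 CPM. None of the 20 replication genes differed 2-fold, and all the genes named in this paragraph had a higher mean in control than in either group.

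Genes of G2 and mitosis were higher on balance. Of 34 tested, 24 rose and 4 fell, a share higher of 70.6% against 31.9% of all tested genes, with a median of 0.258. KIF20A, a kinesin of cytokinesis, had 31.7, 32.01 and 31.3 CPM in the shRRM2 libraries and 72.3, 72.5 and 70.04 CPM in the shRRM2/shp16 libraries and was the single member past 2-fold, at 1.18 ± 0.046 (adjusted p = 1.4e-25). TOP2A, the topoisomerase that untangles chromosomes, had 228, 223 and 237 CPM in the shRRM2 libraries and 370.1, 384 and 391 CPM in the shRRM2/shp16 libraries, a log2 fold change of 0.74 ± 0.03. The control levels were higher, where KIF20A was at 174 ± 2.09 and TOP2A at 671 ± 19.1 CPM. Cyclin B1 (CCNB1), its kinase CDK1 and the phosphatase CDC25C that activates the pair rose, from 48.7 to 78.9, from 37.4 to 56.8 and from 6.90 to 11.3 CPM. MYBL2, an E2F target that works with the mitotic program, fell from 31.6 to 23.6 CPM.

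The count of mitotic genes that rose differed between the deposited files. When a pseudocount of 0.1 was added to RPKM, limma called 6 of the 34 higher, and with the column of shRRM2 replicate c left out 25 of 34. With all 9 columns CCNB1 was not called (limma, adjusted p = 0.065). The column left out does not match the count file of the same library, while the other 8 columns do. The licensing genes and the mitotic genes were not tested against each other.

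**Figure D2:**
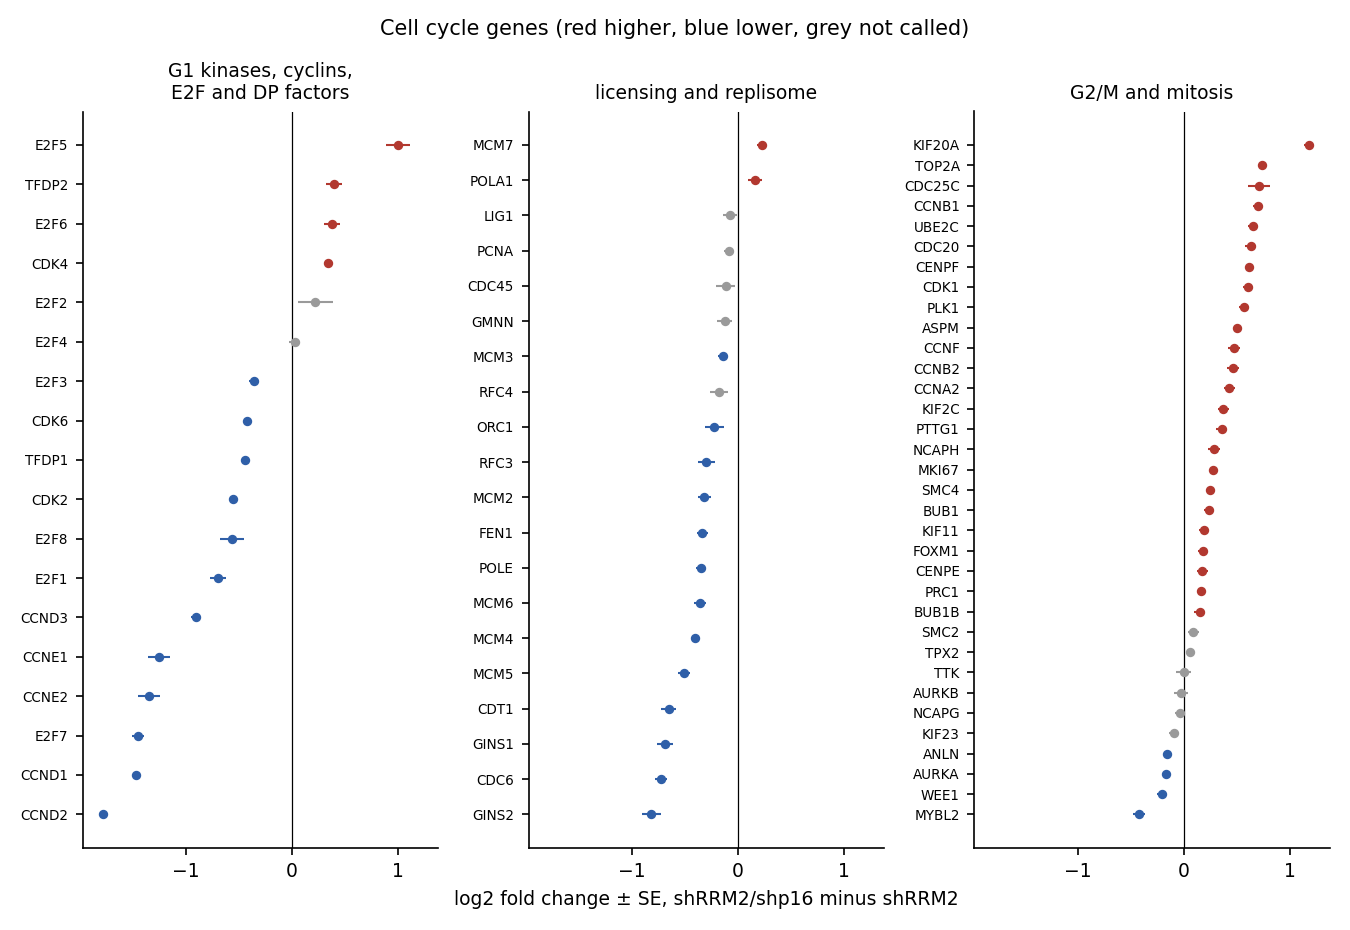
Fitted log2 fold change with its standard error (horizontal axis, shRRM2/shp16 minus shRRM2) for the G1 kinases, cyclins, E2F and DP genes, for the licensing and replisome genes and for the genes of G2 and mitosis. CCND2 and CCND1 lie lowest at -1.78 and -1.47, 13 of the 20 replication genes are called lower, and 24 of the 34 mitotic genes are called higher.

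Nuclear genes that are often read in senescent cells moved in both directions, 4 higher and 4 lower of 8. The HMGA proteins, chromatin proteins tied to senescence-associated foci, fell. HMGA1 had 698, 705 and 698 CPM in the shRRM2 libraries and 268, 264 and 255 CPM in the shRRM2/shp16 libraries, a log2 fold change of -1.42 ± 0.027, and HMGA2 went from 535 to 236 CPM. LMNA, which encodes lamins A and C, fell from 515 to 292 CPM, whereas HMGB3, a DNA-bending protein, rose from 21.2 to 42.2 CPM. Among 28 p53 target genes 14 fell and 5 rose, with a median of -0.118, and limma on RPKM with the pseudocount called 7 lower, or 13 without the column that does not match. The stress kinase PLK2 rose 3.36-fold, from 178 to 599 CPM, and the growth arrest genes GADD45A and GADD45B fell, from 31.97 to 17.8 and from 25.3 to 14.1 CPM.

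Among the highest folds of the whole comparison were chemokines that draw neutrophils. These are the CXC chemokines with an ELR motif before the first cysteine, ligands of the receptors CXCR1 and CXCR2, and their genes lie together on chromosome 4. All 6 that passed the filter rose, with log2 fold changes from 6.26 to 8.17 and a median of 6.91. The seventh on the list, PPBP, had 0 counts in all 9 libraries. Their promoters are shown because the 6 genes rose together and hold a common element. Each line gives the 150 bases that end just before the gene's start, 5′ to 3′ on the gene's own strand, from RefSeq on GRCh38.p14, with matches to GGAATTTCC, a sequence of the NF-kB binding type, in capitals.
CXCL1: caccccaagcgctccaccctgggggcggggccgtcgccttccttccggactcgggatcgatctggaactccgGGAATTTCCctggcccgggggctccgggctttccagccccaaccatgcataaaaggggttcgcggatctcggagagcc
CXCL2: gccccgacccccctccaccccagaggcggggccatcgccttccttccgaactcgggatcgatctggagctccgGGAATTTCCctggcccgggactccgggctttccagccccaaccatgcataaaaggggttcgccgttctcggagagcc
CXCL3: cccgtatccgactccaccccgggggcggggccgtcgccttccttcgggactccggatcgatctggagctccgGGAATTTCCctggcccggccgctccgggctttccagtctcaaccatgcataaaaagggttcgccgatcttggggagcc
CXCL5: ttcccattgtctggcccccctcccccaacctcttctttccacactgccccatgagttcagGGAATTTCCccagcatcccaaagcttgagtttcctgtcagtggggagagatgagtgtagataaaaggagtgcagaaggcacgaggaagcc
CXCL6: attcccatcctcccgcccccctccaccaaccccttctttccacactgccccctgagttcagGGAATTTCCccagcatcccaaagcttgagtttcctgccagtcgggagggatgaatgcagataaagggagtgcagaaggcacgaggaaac
CXCL8: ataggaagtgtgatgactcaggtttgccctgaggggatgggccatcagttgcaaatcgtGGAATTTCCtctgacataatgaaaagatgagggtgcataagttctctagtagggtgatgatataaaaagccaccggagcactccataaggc

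The stretches lie at chr4:73869243-73869392 (plus strand) for CXCL1, chr4:74099196-74099345 (minus) for CXCL2, chr4:74038690-74038839 (minus) for CXCL3, chr4:73998678-73998827 (minus) for CXCL5, chr4:73836528-73836677 (plus) for CXCL6 and chr4:73740419-73740568 (plus) for CXCL8. The match began 78, 77 and 78 bases before the start in CXCL1, CXCL2 and CXCL3, and 90, 89 and 91 bases before it in CXCL5, CXCL6 and CXCL8. The PPBP promoter held none. Searched on both strands in windows of 300 bases, from 250 before to 50 after each start, GGAATTTCC was present in 162 of 35093 promoters (0.462%). It was present in 0.449% of the promoters of all tested genes. The share was 2.01% for genes that rose at least 2-fold (16 of 798 promoters) and 0.432% for genes that fell at least 2-fold. The 6 chemokines are among the genes that rose, and the sequence searched for is the one they share. The 2.01% therefore partly restates that choice and is a description only. A share without the 6 was not computed. Besides the 6 chemokines, the 15 genes with the match that rose at least 2-fold were CXCL10, COL7A1, NFKBIA, MAP3K8, ADGRL2, CGA, OAS3, TSLP and PAN2. FCHSD2, MSRB3, KANK1 and COBLL1 hold the match and fell at least 2-fold. CXCL8 also holds a match to the AP-1 type sequence TGANTCA 137 bases before its start, which 7.71% of all promoters hold. A match describes letters in a window, and binding was not measured.

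CXCL8, which encodes interleukin 8, had 16.6, 14.5 and 14.4 CPM in the shRRM2 libraries and 1116, 1179 and 1182 CPM in the shRRM2/shp16 libraries. The 2 groups were separated by more than an order of magnitude in every library, with a log2 fold change of 6.26 ± 0.044 (SE) and an adjusted p of 2.4e-53. CXCL1 had 1.33, 1.10 and 1.55 CPM in the shRRM2 libraries and 379.8, 389 and 386 CPM in the shRRM2/shp16 libraries, the largest fold of the 6 at 8.17 ± 0.069. CXCL5 had 2.03, 2.13 and 2.87 CPM in the shRRM2 libraries and 346, 358 and 366 CPM in the shRRM2/shp16 libraries, a log2 fold change of 7.24 ± 0.067.

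These 3 genes were also low in control, at 8.94, 1.001 and 1.79 CPM. The other 3 had lower means in shRRM2. CXCL2 had 0.317, 0.173 and 0.230 CPM in the shRRM2 libraries and 29.9, 32.9 and 31.8 CPM in the shRRM2/shp16 libraries, CXCL6 went from 0.338 to 27.9 CPM and CXCL3 from 0.369 to 43.05 CPM. CXCL1, CXCL2 and CXCL3 are near copies of each other, and how the counting divided reads between them is uncertain. Control means were 1.74 CPM for CXCL2, 0.328 for CXCL6 and 1.09 for CXCL3. For CXCL3 the log2 fold change of 6.81 rests on few counts in shRRM2 (2, 11 and 6) and became 7.44 without shRRM2 replicate b.

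Tested protein-coding genes between these chemokines and at 1 end of them rose with them. PPBP, which also lies there, was not tested. The longest run of neighbouring tested protein-coding genes that all rose at least 2-fold spans chr4:73740506-74455009 on GRCh38 and holds 10 genes, CXCL8, CXCL6, PF4V1, CXCL1, CXCL5, CXCL3, CXCL2, MTHFD2L, EREG and AREG. MTHFD2L, a mitochondrial folate enzyme with no chemokine role, rose the least of them, from 5.08 to 10.9 CPM (1.10 ± 0.12). The growth factor genes lie at the far end. AREG, which encodes amphiregulin, had 22.6, 24.3 and 20.5 CPM in the shRRM2 libraries and 439.9, 434 and 432 CPM in the shRRM2/shp16 libraries, and EREG, which encodes epiregulin, had 16.1, 15.8 and 17.1 CPM in the shRRM2 libraries and 339.9, 351 and 349.8 CPM in the shRRM2/shp16 libraries. The control means were 21.5 and 21.03 CPM.

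Other chemokines rose too. CCL2, which attracts monocytes, had 35.99, 37.03 and 40.8 CPM in the shRRM2 libraries and 243, 251 and 259 CPM in the shRRM2/shp16 libraries, with no overlap and a log2 fold change of 2.72 ± 0.042 (adjusted p = 1.6e-40). CCL20, the ligand of CCR6, rose from 0.330 to 17.2 CPM, and the fitted log2 fold change of 5.65 became 6.52 without shRRM2 replicate c. CXCL10 and CCL7 rose to 2.58 and 1.93 CPM from 0.104 and 0.176, and their log2 fold changes of 4.61 and 3.39 became 6.19 without shRRM2 replicate a and 4.31 without shRRM2 replicate c. CXCL12, which retains stem and immune cells and is no inflammatory chemokine, rose by 0.76 on the log2 scale to 49.2 CPM, under the control mean of 135. Of 17 listed chemokines outside the ELR group 7 passed the filter. CCL20, CXCL10 and CCL7 passed it only through the shRRM2/shp16 libraries, where they were high, so the filter partly set the share that rose. CCL26, which did not pass, had 8, 7 and 6 counts in the shRRM2 libraries and 0, 0 and 1 in the shRRM2/shp16 libraries. Of the 7 tested 6 rose (85.7%) and none fell by edgeR, and CX3CL1 was the member without a call. DESeq2 called 5 of them higher, and CXCL16 lost its call there (adjusted p = 0.053).

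Interleukin 1 and its receptors rose as a group. Of 14 tested family members 10 were higher (71.4%) and 2 lower (14.3%), 9 of the 10 at least 2-fold. IL1B, the secreted form, had 11.3, 12.2 and 13.7 CPM in the shRRM2 libraries and 216, 213 and 219 CPM in the shRRM2/shp16 libraries. The groups did not overlap, and the log2 fold change was 4.12 ± 0.056 (adjusted p = 8.7e-43). IL1A, the form that acts at the cell surface and upstream of the secretory phenotype, had 0.762, 1.21 and 1.09 CPM in the shRRM2 libraries and 10.4, 10.7 and 12.8 CPM in the shRRM2/shp16 libraries, a log2 fold change of 3.45 ± 0.17. The signalling receptor IL1R1 rose from 106 ± 2.47 to 504 ± 8.82 CPM (SD, n = 3), IL18R1 from 3.35 to 25.9 CPM and the inhibitory kinase IRAK3 from 9.33 to 50.01 CPM. IL33, an alarmin, rose from 0.595 to 5.59 CPM, and IL18 was the ligand that fell, from 1.70 to 0.538 CPM.

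IL6, the cytokine most often measured in the secretory phenotype, had 32.4, 33.05 and 37.8 CPM in the shRRM2 libraries and 283, 281 and 286 CPM in the shRRM2/shp16 libraries, with control at 7.04, 7.21 and 8.40 CPM. All 3 shRRM2/shp16 libraries lay far above the others, at a log2 fold change of 3.04 ± 0.044 (adjusted p = 1.0e-41). Its relatives LIF and IL11 rose too, from 118 to 421 and from 214 to 719.7 CPM, with control means of 79.3 and 221 CPM. CSF3, which encodes the granulocyte growth factor G-CSF, had 1, 2 and 8 counts in the shRRM2 libraries and 1226, 1313 and 1213 in the shRRM2/shp16 libraries. Its fitted log2 fold change of 8.18 ± 0.14 became 9.38 without shRRM2 replicate c. CSF1, the macrophage growth factor, went the other way, from 45.6 to 28.7 CPM, and CSF2 did not pass the filter.

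Of 20 tested cytokines outside the interleukin 1 family, these included, 14 rose and 4 fell. TNFSF15, a member of the tumour necrosis factor family that acts on endothelium and T cells, had 2.98, 2.65 and 4.25 CPM in the shRRM2 libraries and 44.05, 43.7 and 42.1 CPM in the shRRM2/shp16 libraries, a log2 fold change of 3.71 ± 0.099. TNFSF4, the OX40 ligand, fell from 56.8 to 15.1 CPM (-1.91). IL24 rose from 2.16 to 14.9 CPM.

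**Figure D3:**
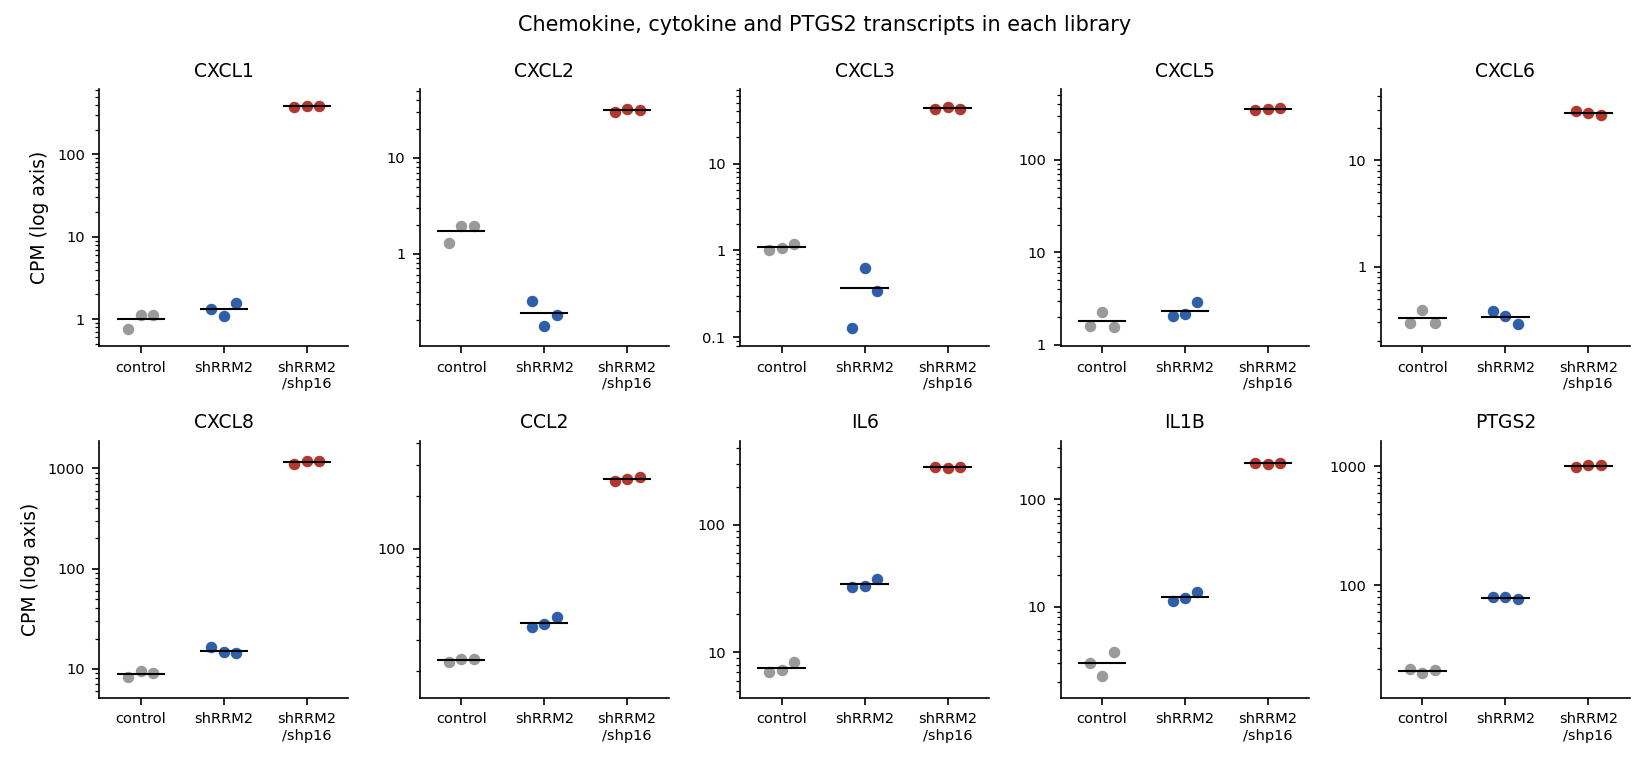
CPM of 10 transcripts in each of the 9 libraries on log axes, points being libraries a, b and c in that order and bars group means. In every panel the 3 shRRM2/shp16 libraries lie above all others, for example CXCL8 at 1159 CPM on average against 15.2 in shRRM2 and 8.94 in control.

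The NF-kB pathway itself was higher at several levels. Of 28 tested members 23 rose and 1 fell, a share higher of 82.1%, with 12 at least 2-fold and a median log2 fold change of 0.905. Among the subunits RELB had 11.1, 12.3 and 11.8 CPM in the shRRM2 libraries and 34.7, 35.5 and 35.5 CPM in the shRRM2/shp16 libraries, a log2 fold change of 1.58 ± 0.075 (adjusted p = 2.5e-22). NFKB2 rose from 41.6 to 91.2 CPM, REL from 7.04 to 13.7 CPM and NFKB1 from 38.4 to 66.4 CPM, while RELA was not called. The 4 that rose are themselves known as NF-kB targets.

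Of 10 feedback inhibitors, which NF-kB induces to limit itself, 8 rose (80.0%) and 1 fell (10.0%). TNFAIP3, which encodes the deubiquitinase A20, had 19.2, 21.2 and 21.9 CPM in the shRRM2 libraries and 191, 182 and 195 CPM in the shRRM2/shp16 libraries, a log2 fold change of 3.18 ± 0.051. NFKBIA, which encodes the inhibitor that holds NF-kB in the cytoplasm, had 26.5, 24.6 and 29.3 CPM in the shRRM2 libraries and 127, 123 and 118 CPM in the shRRM2/shp16 libraries, a log2 fold change of 2.19 ± 0.05. The ribonuclease gene ZC3H12A, whose product degrades IL6 message, rose from 8.998 to 45.03 CPM.

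Among the inflammatory targets 11 of 13 rose (84.6%) and none fell, with ICAM1 and TRAF1 not called. PTGS2, the inducible cyclooxygenase, had 80.3, 79.8 and 77.2 CPM in the shRRM2 libraries and 988, 1019 and 1017 CPM in the shRRM2/shp16 libraries, a log2 fold change of 3.67 ± 0.032 (adjusted p = 8.0e-50). The shRRM2 libraries already lay above the control libraries at 19.9, 18.3 and 19.5 CPM. Complement C3 rose from 12.5 to 106 CPM, the adhesion molecule VCAM1 from 2.28 to 13.6 CPM and the matrix-binding TNFAIP6 from 1.83 to 11.2 CPM.

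Prostaglandin genes beyond PTGS2 were higher in part. Of 12 tested genes of prostaglandin synthesis and reception, PTGS2 included, 7 rose (58.3%) and 1 fell (8.33%). PTGES, the inducible prostaglandin E synthase, had 7.62, 8.02 and 7.63 CPM in the shRRM2 libraries and 61.01, 58.5 and 57.5 CPM in the shRRM2/shp16 libraries, a log2 fold change of 2.93 ± 0.069. PTGDS, the D synthase, rose from 0.937 to 6.59 CPM, and the prostacyclin receptor PTGIR fell from 4.22 to 1.61 CPM.

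C/EBP beta, the other main regulator of the secretory phenotype, was higher in message. CEBPB had 99.3, 101.3 and 91.4 CPM in the shRRM2 libraries and 325, 316 and 322 CPM in the shRRM2/shp16 libraries, a log2 fold change of 1.72 ± 0.035 (adjusted p = 4.4e-36), and its partner CEBPD rose from 34.96 to 76.7 CPM. Of 22 C/EBP, AP-1 and immediate early genes 16 rose (72.7%) and 5 fell (22.7%). FOS, an AP-1 subunit that responds within minutes to growth factors, rose from 3.63 to 11.6 CPM, above its control mean of 7.70. FOSL1, the AP-1 subunit that accumulates under lasting ERK signals, fell from 176 to 85.1 CPM. KLF6 fell from 255 to 134 CPM and KLF4 rose from 10.1 to 19.8 CPM. MYC rose from 34.1 to 59.3 CPM to about the control mean of 57.8 CPM.

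The EGF family and the genes that report on ERK signalling did not move as one. Of 23 tested, 9 rose (39.1%) and 12 fell (52.2%). Beside AREG and EREG, the ligand NRG1, which acts through ERBB3 and ERBB4, had 58.8, 60.4 and 60.2 CPM in the shRRM2 libraries and 344, 340.1 and 344 CPM in the shRRM2/shp16 libraries, a log2 fold change of 2.52 ± 0.035. EGF itself was low and fell, from 3.52 to 0.902 CPM. Among the feedback genes the ERK phosphatase DUSP5 fell from 53.8 to 16.97 CPM, while DUSP4 and SPRY1, other inhibitors of the pathway, rose from 7.93 to 24.8 and from 16.4 to 39.2 CPM.

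Proteases that degrade matrix rose in 1 block on chromosome 11. MMP10, MMP1, MMP3 and MMP12 are neighbours among the tested genes (chr11:102770503-102875034) and all rose at least 2-fold. MMP3, which encodes stromelysin 1, had 17.3, 21.7 and 20.7 CPM in the shRRM2 libraries and 321, 320.0 and 324 CPM in the shRRM2/shp16 libraries, a log2 fold change of 4.01 ± 0.049 (adjusted p = 2.4e-44). MMP10 had 2.73, 2.999 and 2.98 CPM in the shRRM2 libraries and 26.9, 30.02 and 31.3 CPM in the shRRM2/shp16 libraries, a log2 fold change of 3.34 ± 0.11. MMP1, the interstitial collagenase, was at 174 CPM in control and rose from 340.5 to 735 CPM. Their inhibitors divided, TIMP1 rising from 1506 to 2337 CPM, TIMP2 and TIMP3 falling from 1088 to 769.8 and from 27.02 to 7.22 CPM, and TIMP4 not called at 2.18 and 1.56 CPM. From the log2 RPKM values as deposited limma did not call TIMP1 (adjusted p = 0.24).

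Members of the list of plasminogen activators and serpins moved in both directions. SERPINB7, a serine protease inhibitor, had 25.4, 24.5 and 22.7 CPM in the shRRM2 libraries and 3.01, 2.54 and 2.15 CPM in the shRRM2/shp16 libraries, a log2 fold change of -3.23 ± 0.11 (adjusted p = 3.7e-27). All shRRM2/shp16 libraries lay below all shRRM2 libraries. SERPINB2, which encodes the plasminogen activator inhibitor PAI-2, rose from 8.14 to 23.9 CPM, and SERPINF1 from 19.5 to 47.3 CPM.

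Contractile genes fell without exception in the list used. All 13 tested members were lower (29.1% of all tested genes were), by edgeR and in every alternative but the authors' log2 RPKM values, where 11 were, and the median log2 fold change was -0.847. ACTA2, which encodes the smooth muscle actin of myofibroblasts, had 646, 669 and 657 CPM in the shRRM2 libraries and 223, 215 and 217 CPM in the shRRM2/shp16 libraries, a log2 fold change of -1.59 ± 0.028 (adjusted p = 1.4e-38). TAGLN, which encodes the actin-binding protein SM22, had 916, 975 and 939 CPM in the shRRM2 libraries and 325, 314 and 316 CPM in the shRRM2/shp16 libraries, a log2 fold change of -1.57 ± 0.03. The myosin light chain MYL9 fell from 967 to 418 CPM and calponin CNN1 from 106 to 46.9 CPM. For all 4 the shRRM2/shp16 mean was also under the control mean, which was 818 CPM for ACTA2. The cytoplasmic actins ACTB and ACTG1, often used as references, fell from 9176 to 6417 and from 5452 to 3978 CPM, and neither was called from the log2 RPKM values as deposited (limma, adjusted p = 0.88 and 0.83).

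Matrix genes changed in both directions, with 21 of 49 tested members higher (42.9%) and 22 lower (44.9%) and a median of -0.011. FN1, which encodes fibronectin, had 14494, 14655 and 15346 CPM in the shRRM2 libraries and 6735, 6586 and 6671 CPM in the shRRM2/shp16 libraries, a log2 fold change of -1.15 ± 0.022, and the matricellular THBS1 had 11864, 12032 and 12341 CPM in the shRRM2 libraries and 4678, 4684 and 4629.7 CPM in the shRRM2/shp16 libraries, a log2 fold change of -1.37 ± 0.022. Of 10 crosslinking enzymes 7 fell (70.0%), the lysyl oxidase LOX from 1326 to 672 CPM and its relative LOXL1 from 139.7 to 49.8 CPM.

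Collagens went in different directions by type. COL11A1, a minor fibrillar chain, had 157, 157 and 162 CPM in the shRRM2 libraries and 18.9, 20.1 and 21.3 CPM in the shRRM2/shp16 libraries, a log2 fold change of -2.98 ± 0.047, and COL1A1 fell from 13452 to 9330.4 CPM, without a call from the log2 RPKM values as deposited (limma, adjusted p = 0.51). COL3A1, the partner of type I collagen in soft tissue, had 1633, 1670.0 and 1668 CPM in the shRRM2 libraries and 3689, 3596 and 3609 CPM in the shRRM2/shp16 libraries and more than doubled (1.13 ± 0.023). COL14A1, which coats collagen fibrils, had 6.92, 7.04 and 7.17 CPM in the shRRM2 libraries and 64.8, 62.8 and 65.6 CPM in the shRRM2/shp16 libraries, and its shRRM2/shp16 mean of 64.4 CPM was near the control mean of 60.2. COL7A1, the anchoring fibril collagen, had 112, 119 and 118 CPM in the shRRM2 libraries and 774, 749 and 749 CPM in the shRRM2/shp16 libraries, a log2 fold change of 2.70 ± 0.032, far over the control mean of 151 CPM. THBS2 and FBLN1, both matrix glycoproteins, rose from 78.8 to 331 and from 92.99 to 269 CPM.

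**Figure D4:**
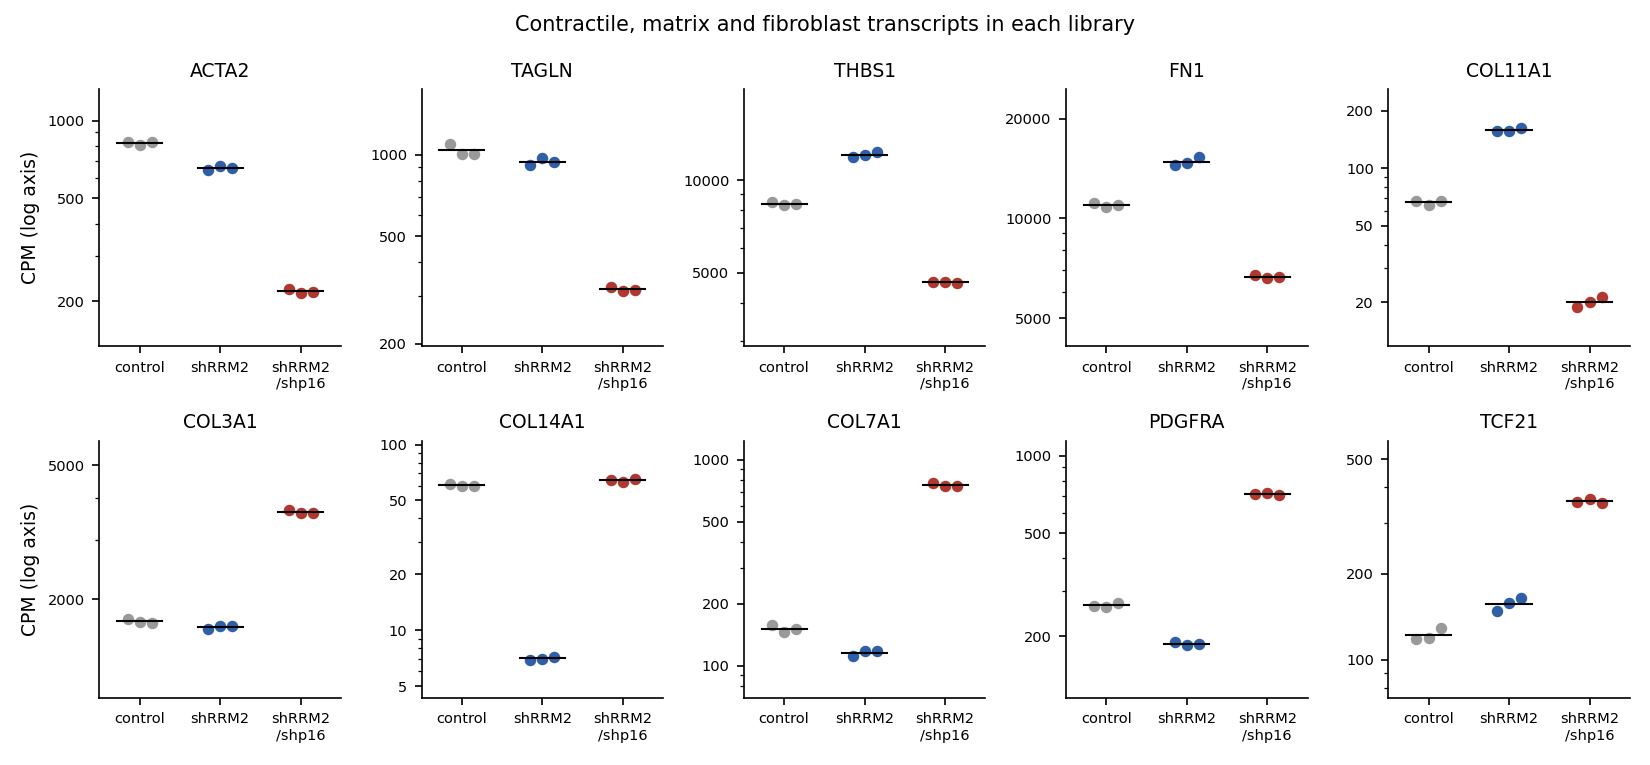
CPM of 10 contractile, matrix and fibroblast transcripts in each of the 9 libraries on log axes, points being libraries and bars group means. ACTA2, TAGLN, THBS1, FN1 and COL11A1 are lowest in the shRRM2/shp16 libraries, and COL3A1, COL7A1, PDGFRA and TCF21 are highest there.

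A list of HOX genes and transcription factors of lung fibroblast identity was mostly higher, and the general fibroblast markers were not. Of its 12 tested members 10 rose (83.3%) and 2 fell (16.7%). TCF21, a factor of lung and kidney stroma, had 148, 157 and 164 CPM in the shRRM2 libraries and 354, 363 and 352 CPM in the shRRM2/shp16 libraries, a log2 fold change of 1.19 ± 0.034 (adjusted p = 1.7e-30). TBX3 rose from 163 to 364 CPM, and TWIST1 and TWIST2 from 13.96 to 30.4 and from 14.2 to 30.5 CPM. Of the 12 general fibroblast markers 2 rose and 6 fell, with 4 higher under scaling by library totals alone and 3 lower from the log2 RPKM values. PDGFRA, a receptor that marks resident lung fibroblasts, had 189, 185 and 186 CPM in the shRRM2 libraries and 708, 714 and 707 CPM in the shRRM2/shp16 libraries, a log2 fold change of 1.92 ± 0.028, and THY1 and vimentin (VIM) fell from 286 to 161 and from 3525 to 2136 CPM.

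By edgeR all 26 tested members of the TGF-beta superfamily list were called, against 61.1% of all tested genes. Of these members 18 rose (69.2%, against 31.9% of all tested genes), and the 3 BMP ligands on the list rose. BMP2 had 35.9, 36.1 and 33.1 CPM in the shRRM2 libraries and 90.1, 96.4 and 92.1 CPM in the shRRM2/shp16 libraries, a log2 fold change of 1.41 ± 0.049. BMP4 rose from 5.86 to 20.4 CPM and BMP6 from 4.36 to 15.99 CPM. The BMP antagonist NOG (noggin) fell from 31.4 to 10.8 CPM. ID1 and ID3, direct targets of BMP signals, rose from 76.02 to 155 and from 182 to 332 CPM. PMEPA1, a feedback target of TGF-beta, rose from 36.7 to 88.1 CPM. BMP5, chosen among the highest folds, had 1, 2 and 0 counts in shRRM2 and 81, 87 and 89 in shRRM2/shp16, a ratio of 75.1 with a 95% exact counting interval of 25.4 to 367. Its fitted log2 fold change of 6.08 became 6.92 without shRRM2 replicate b.

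Insulin-like growth factor binding proteins, secreted carriers that are prominent in senescent fibroblasts, divided 3 to 3. IGFBP5, among the most counted genes of these libraries, had 9172, 9081 and 9342 CPM in the shRRM2 libraries and 20073, 19894 and 20281 CPM in the shRRM2/shp16 libraries, a log2 fold change of 1.13 ± 0.021, which was not called from the log2 RPKM values as deposited (limma, adjusted p = 0.51). PAPPA, the protease that cleaves IGFBP4 and IGFBP5, rose from 606 ± 4.06 to 1826 ± 36.3 CPM, and it had been at 262 ± 6.96 CPM in control. IGFBP3, a further TGF-beta target, had 831, 834 and 847 CPM in the shRRM2 libraries and 229, 235 and 241 CPM in the shRRM2/shp16 libraries, a log2 fold change of -1.83 ± 0.028. IGFBP7 fell from 166 to 63.1 CPM to near its control mean of 71.8, and the growth factor IGF2 fell from 162 to 58.7 CPM.

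Among developmental pathways, HHIP, the decoy receptor that is itself a Hedgehog target, had 89.6, 93.04 and 91.01 CPM in the shRRM2 libraries and 4.38, 5.78 and 6.13 CPM in the shRRM2/shp16 libraries. All shRRM2/shp16 libraries lay below all others, at -4.07 ± 0.071 on the log2 scale (adjusted p = 9.0e-39), and control held 25.02, 26.4 and 27.2 CPM. The receptor PTCH1 and the factor GLI1, the other standard targets of that pathway, rose from 16.6 to 25.97 and from 0.868 to 1.58 CPM, and GLI1 was not called from the log2 RPKM values as deposited (limma, adjusted p = 0.12). The Wnt antagonist SFRP1 fell from 2491 to 774 CPM and the ligand WNT5B from 74.3 to 22.2 CPM. RSPO3, which strengthens Wnt signals, rose from 2.78 to 13.1 CPM. Of 21 tested Wnt and Notch genes 7 rose (33.3%) and 8 fell (38.1%), against 31.9% and 29.1% of all tested genes.

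Keratins, intermediate filaments of epithelia, fell in 6 of 7 tested members (85.7%), and KRT81 rose. KRT19 had 62.6, 60.97 and 61.5 CPM in the shRRM2 libraries and 3.27, 2.54 and 3.39 CPM in the shRRM2/shp16 libraries, a log2 fold change of -4.33 ± 0.081 (adjusted p = 1.4e-37). KRT7 fell from 55.1 to 10.4 CPM, and the obligate pair KRT18 and KRT8 from 132 to 39.2 and from 32.2 to 13.2 CPM. The epithelial marker CLDN4 went from 10.7 to 2.37 CPM beside them, and the summed level of the 3 tested epithelial markers was 12.0 to 13.4 CPM in shRRM2, 3.29 to 5.21 CPM in shRRM2/shp16 and 23.9 to 25.2 CPM in control. EPCAM and CDH1 passed the filter without a call. The part of other cells in the fall was not tested.

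A block of neighbouring genes on chromosome 19 fell together. The 6 tested pregnancy-specific glycoproteins, secreted proteins of the placenta that fibroblasts also make, lie in a row at chr19:42721638-43269530 and all fell, with log2 fold changes from -4.42 to -3.43. PSG4 had 34.5, 33.6 and 37.2 CPM in the shRRM2 libraries and 1.85, 2.09 and 2.10 CPM in the shRRM2/shp16 libraries, a log2 fold change of -4.12 ± 0.10. PSG5 fell from 11.1 to 1.04 CPM. PSG3 had 58 counts over the shRRM2 libraries and 3 over the others, a ratio of 22.1 (95% exact counting interval 7.2 to 110), and its log2 fold change of -4.30 became -5.11 without shRRM2/shp16 replicate b. That of PSG1, -3.88, became -5.02 without shRRM2/shp16 replicate c. The genes of this family are near-identical, so the split of reads among them is uncertain. With a filter that asks for more counts, 4 of the 6 were still tested and lower.

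In all, 27 runs of 3 or more neighbouring tested protein-coding genes changed at least 2-fold in one direction. Some hold related genes, such as AKR1C1, AKR1C2 and AKR1C3 on chromosome 10 (higher, aldo-keto reductases), PCDHB10, PCDHB11 and PCDHB12 on chromosome 5 (higher, clustered protocadherins) and VNN3, VNN2 and SLC18B1 on chromosome 6 (higher). Lower runs include P3H2, CLDN1 and CLDN16 on chromosome 3 and FGF5, CFAP299 and BMP3 on chromosome 4. AKR1C1, which reduces steroids and is an NRF2 target, had 2.29, 1.79 and 2.35 CPM in the shRRM2 libraries and 26.9, 27.9 and 27.7 CPM in the shRRM2/shp16 libraries, a log2 fold change of 3.68 ± 0.11, though reads may be divided among these near copies. How many such runs an arbitrary order of the genes would give was not computed.

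Interferon-stimulated genes were higher in part, 14 of 22 higher (63.6%) and 2 lower (9.09%), with a median of 0.494. ISG15, MX1, IFI44, IFI44L, IRF9 and XAF1 were not called. IFI27, OAS1, OAS2, OASL, IRF7 and BST2 did not pass the filter. OAS3, a sensor of double-stranded RNA, had 7.43, 9.92 and 8.89 CPM in the shRRM2 libraries and 23.7, 22.3 and 25.1 CPM in the shRRM2/shp16 libraries, a log2 fold change of 1.43 ± 0.087, and the sensor IFIH1 rose from 1.48 to 4.01 CPM. OAS3 had a higher control mean, at 42.6 CPM.

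Lipid and sugar metabolism changed in part. Of 19 genes of cholesterol synthesis 14 fell (73.7%) and 2 rose (10.5%). DHCR7, an enzyme of the last steps, had 43.7, 41.8 and 43.9 CPM in the shRRM2 libraries and 20.8, 21.1 and 20.4 CPM in the shRRM2/shp16 libraries, a log2 fold change of -1.05 ± 0.057 (adjusted p = 2.2e-20). From the RPKM values with a pseudocount of 0.1 limma called 7 of the 19 lower, and 11 without the column that does not match. Among 31 genes of glycolysis and hypoxia 13 rose (41.9%) and 15 fell (48.4%). The glucose transporter SLC2A1 had 539, 564 and 540.4 CPM in the shRRM2 libraries and 233, 232 and 219.9 CPM in the shRRM2/shp16 libraries, a log2 fold change of -1.26 ± 0.029. LDHA, which makes lactate, fell from 1526 to 974 CPM, while the regulator PFKFB4 and the hypoxia-induced carbonic anhydrase CA9 rose from 11.9 to 36.3 and from 20.1 to 64.6 CPM. With library totals as the only scaling 11 of the 31 were lower.

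Amino acid genes under ATF4 rose in 10 of 13 tested members (76.9%, against 31.9% of all tested genes). PSAT1, an enzyme of serine synthesis, went from 10.7 to 25.7 CPM and asparagine synthetase ASNS from 7.17 to 14.2 CPM, both to about their control means of 25.3 and 14.5. Of 16 lysosomal genes 10 fell (62.5%) and 4 rose (25.0%), against 29.1% and 31.9% of all tested genes. GPNMB, a surface protein of stressed and senescent cells, fell from 25.98 to 8.73 CPM to its control level of 8.95, and FUCA1 fell from 14.9 to 4.21 CPM. The cathepsins CTSS and CTSK rose from 3.29 to 15.4 and from 18.4 to 49.5 CPM.

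**Figure D5:**
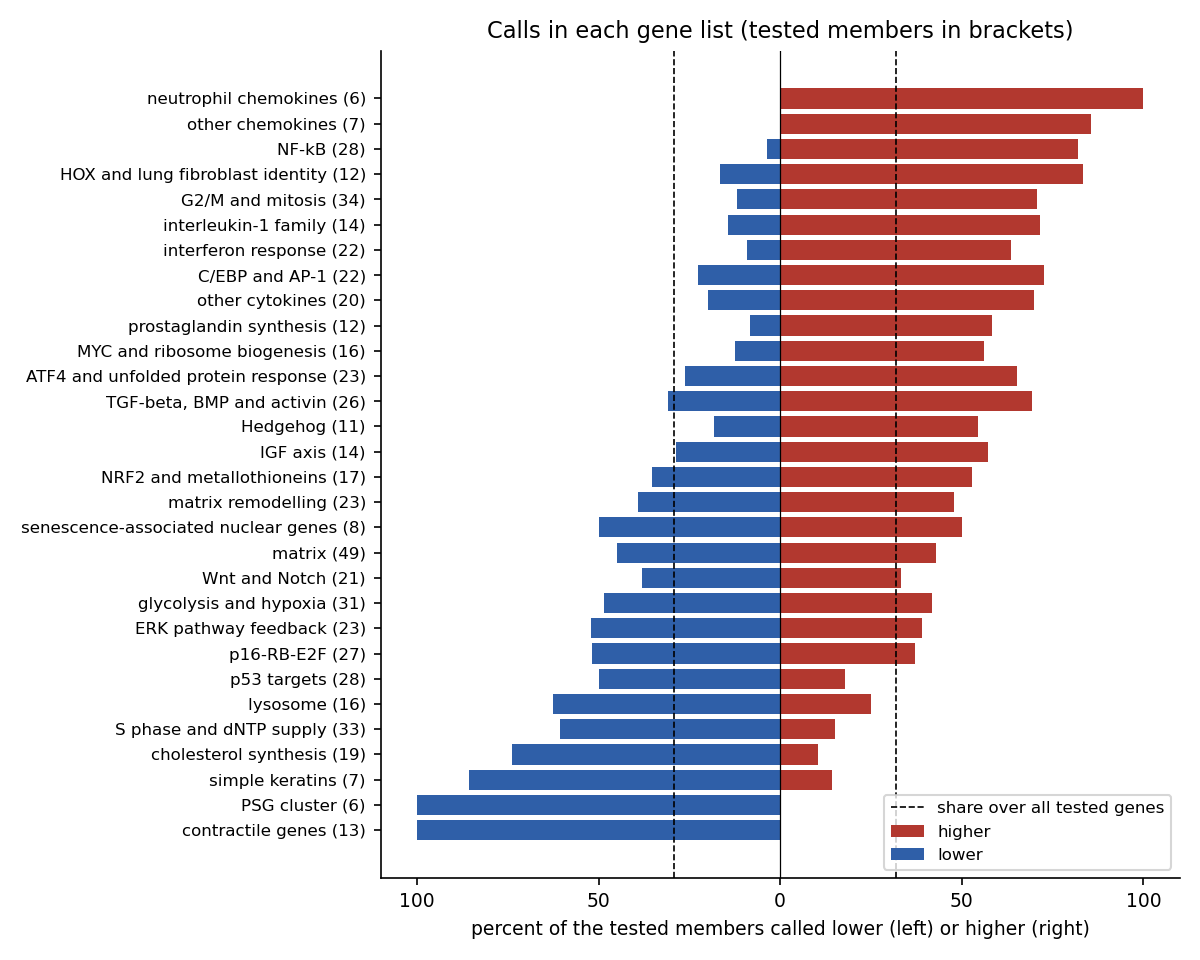
Share of the tested members of each gene list called higher (right) or lower (left), in percent, with the number tested in brackets and the shares over all tested genes as dashed lines (31.9% higher, 29.1% lower). All 6 neutrophil chemokines are higher, and all 13 contractile genes and all 6 PSG genes are lower.

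By level, the largest gains and losses were in abundant genes. IGFBP5 gained most. RF00100, a small noncoding RNA of the 7SK family, gained next, from 11281 to 17431 CPM, and was not called by limma on RPKM with the pseudocount (adjusted p = 0.28). Further gains were those of TFPI2, an inhibitor of tissue factor, from 699 to 2307 CPM, the hormone STC1 from 419.8 to 1745 CPM, and ACSL4, which activates arachidonic acid, from 188 to 1159 CPM. FN1, THBS1, COL1A1, ACTB and AHNAK lost most among protein-coding genes. The nuclear RNA MALAT1 fell from 15696 ± 631 to 10508 ± 219 CPM (SD, n = 3) by edgeR, with no call from the log2 RPKM values as deposited (limma, adjusted p = 0.57). NEAT1, the scaffold of paraspeckles, fell from 3119.8 ± 60.00 to 1499 ± 36.3 CPM. All 4 nuclear-retained RNAs listed fell, summing to 19010 to 20394 CPM in shRRM2, 12214 to 12734 in shRRM2/shp16 and 8386 to 8622 in control. Reads outside annotated genes were 27.7% to 28.8% of unique reads in shRRM2 and 23.5% to 24.4% in shRRM2/shp16, and the part of nuclear or unspliced RNA in the differences between genes was not tested.

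Among genes of at least 4 CPM in 1 of the groups, the lowest fitted log2 fold change was that of GMNC, a regulator of multiciliated cells related to geminin, with 108, 100 and 93 counts in shRRM2 and 1, 0 and 1 in shRRM2/shp16, a ratio of 171.7 with a 95% exact counting interval of 47.1 to 1424, which covers counting error only. KISS1, which encodes the peptide kisspeptin, had 14.9, 14.5 and 14.2 CPM in the shRRM2 libraries and 0.475, 0.348 and 0.107 CPM in the shRRM2/shp16 libraries, a log2 fold change of -5.51 ± 0.19. SEMA7A, a membrane semaphorin that TGF-beta induces, had 162, 164 and 155 CPM in the shRRM2 libraries and 10.4, 10.2 and 10.8 CPM in the shRRM2/shp16 libraries, a log2 fold change of -3.94 ± 0.051, with control at 148, 143 and 148 CPM. Upward, BCL2A1, an NF-kB-induced survival gene, rose from 0.259 to 8.25 CPM and TMEM26 from 0.866 to 21.9 CPM.

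Of 793 tested long intergenic RNAs 119 rose and 212 fell, a share called of 41.7% against 61.1% of all tested genes, and at least 2-fold 49 rose and 110 fell. More falls than rises were also counted among 260 sense intronic RNAs (18 rose, 69 fell), 350 processed pseudogenes (25 rose, 66 fell) and the fifth of all tested genes with the lowest mean CPM (401 rose, 653 fell). The part of the low level in these counts was not tested. Of 812 antisense RNAs 152 rose and 153 fell. MIR137HG, the host transcript of miR-137, had 14.9, 12.9 and 13.1 CPM in the shRRM2 libraries and 1.74, 2.04 and 2.04 CPM in the shRRM2/shp16 libraries, a log2 fold change of -2.80 ± 0.13. LINC00622 rose from 0.945 to 4.09 CPM. Because the setting for strand in the counting is not given in the sources used here, reads of a gene and of its antisense partner cannot be told apart.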

How the data were processed

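RNA of 9 IMR90 libraries was extracted with Trizol and sequenced after a stranded preparation with ribosomal RNA depletion, per the labels' protocols. The authors deposited 1 table of raw counts per gene for each library, in the layout that HTSeq writes, and 1 table of values headed log2 RPKM, which calculated back to log2(x + 1) with x per base rather than per kilobase. For the pseudocount of 0.1, x was first put per kilobase. TopHat2 2.0.9, Cufflinks 2.0.2, Cuffdiff and GRCh38 stand in the submitters' processing notes. The annotation release and the counter's version and strand setting are not given in the sources used here. The fold changes, p-values and q-values that the authors also deposited were not used.

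The counts were tested with edgeR 4.0.16 (TMM scaling, filterByExpr, quasi-likelihood fit of all 9 libraries, Benjamini-Hochberg adjustment over 16561 genes, threshold 0.05). The lines for reads outside genes, ambiguous or not unique were left out. Libraries held 15770895 to 24873291 counts. DESeq2 1.42.0 and limma 3.58.1 served as alternatives. In the log2 RPKM table the column of shRRM2 replicate c matched its count file within 0.01 for 3.65% of 11692 genes, and the other 8 columns for 100%. On simulated counts for this comparison, 16168 genes entered the test, and it recovered 46 of 64 genes changed 1.41-fold, 56 of 68 changed 2-fold and 64 of 65 changed 4-fold, with 11 false calls among 15971 unchanged genes. Far fewer genes were changed in the simulation than the 61.1% called in the data. These rates therefore need not carry over to the data.

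Coordinates come from GENCODE 29 on GRCh38, to which 56591 of 64253 identifiers matched, and promoters from RefSeq (GRCh38.p14). The gene lists and the tests were chosen with earlier results of these data known. Named genes are the hairpins' targets, up to 4 called members per group by fold with its defining members, the 15 highest and lowest folds at 4 CPM or more, the 10 largest gains and losses in CPM, and genes in runs along a chromosome. MHC class I genes are not reported here, since several identifiers share their reads. Some genes that the rule names are not reported here.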

Additional observations from a re-analysis of the deposited data

Results flagged for a closer look

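Uniquely aligned reads that fell outside annotated genes, which enter no test above, were on average 28.4% in the shRRM2 libraries and 24% in the shRRM2/shp16 libraries, both above the 17.6% to 18.9% of the control libraries.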

How the results depend on the processing

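Limma on the log2 RPKM values as deposited called 3213 genes lower, and 0 at least 2-fold higher and 0 at least 2-fold lower on its log2(x + 1) scale with x per base, on which folds are compressed by construction. With a pseudocount of 0.1 on RPKM per kilobase, 593 genes were at least 2-fold lower. Leaving out the column that does not match its count file, an alternative chosen after seeing the data, gave 5576 higher and 3766 lower. The cause of the mismatch was not tested, and the 8 columns gave 766 genes at least 2-fold higher and 745 lower. Scaling by library totals alone gave a median of all genes of 0.072 (0.011 with TMM) and 59.6% of calls higher. DESeq2 called 4571 genes higher and 4335 lower. Leaving out 1 library gave 9520 to 10366 calls. Depth limits the genes of few counts, such as BMP5, CSF3 and CXCL3, whose values without 1 library are given above. Of 352 named genes, 343 kept direction and call under every alternative made from the counts; the others were CXCL16, CEBPZ, TIMP4, MT2A, LYZ, MT-CO1, ZNF488, MMRN2 and CXorf57. Limma on the RPKM values made no call for 32 named genes as deposited, 19 with the pseudocount and 6 with the 8 matching columns. CDKN2A and RRM2 kept their direction and call in all alternatives.

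No pairing of the libraries by the replicate letters a, b and c was seen. Deviations of libraries with the same letter correlated at -0.075, -0.057 and 0.044 over 10941 genes. Those of libraries with different letters correlated at -0.076 to 0.131. With 3 libraries per group these values cannot decide whether the letters mark a shared infection or batch. A replicate block gave 5317 genes higher and 4817 lower.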

Other observations

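A pair of gene groups was written down after the values had been seen. The direction of members could be known beforehand, so their counts are a description without a test and lend no support. Of 14 genes that cyclic AMP is known to induce, all 14 were called higher by edgeR, against 31.9% of all tested genes. At least 2-fold higher were 11 of them, and the median log2 fold change was 1.81. The nuclear receptor NR4A2 had 102, 100.9 and 106 CPM in the shRRM2 libraries and 414, 418 and 436 CPM in the shRRM2/shp16 libraries. The coactivator PPARGC1A, a regulator of mitochondrial genes, rose from 1.99 to 18.5 CPM, and PDK4, a kinase that limits glucose oxidation, from 1.35 to 19.8 CPM. The phosphodiesterases PDE4B and PDE4D, which degrade cyclic AMP, rose from 19.2 to 39.4 and from 30.9 to 93.3 CPM.

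Of 14 genes of the sarcomere and the muscle-type cytoskeleton 13 passed the filter, and 12 of them were called lower, 11 at least 2-fold, with a median of -2.6. The small heat shock protein gene HSPB6 had 176, 179.6 and 169 CPM in the shRRM2 libraries and 24.5, 26.2 and 26.6 CPM in the shRRM2/shp16 libraries. Desmin (DES), the intermediate filament of muscle, fell from 4.24 to 0.693 CPM and ANKRD1, a target of mechanical signals, from 30.1 to 2.57 CPM. MYOCD, which encodes myocardin, the coactivator of smooth muscle genes, was the member that rose, from 39.1 to 91.1 CPM.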
